A study of Mus musculus with 12 samples.

Results

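Receptors for dopamine and noradrenaline and the enzymes that break these transmitters down were followed through 12 hippocampal libraries. They are the 9 genes Drd1, Drd2, Drd5, Adra1a, Adra2a, Adra2c, Adrb1, Maoa and Maob, found by gene symbol among the 78298 genes of the deposited table. All 9 passed the filter on low counts and were tested among 18600 genes. In edgeR 0 of the 9 passed an adjusted p of 0.05 in any comparison, where 0.790% of all tested genes passed in Model against Control, 1.88% in Treatment against Model and 0.102% in Treatment against Control. Drd5 came nearest in Model against Control and in Treatment against Model, and Adrb1 in Treatment against Control.

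The catecholamines dopamine and noradrenaline reach the hippocampus in axons whose cell bodies lie in the brainstem, while cells of the hippocampus carry their receptors. Dopamine receptors of the D1 class (Drd1, Drd5) couple to stimulatory G proteins and raise cAMP, whereas Drd2 lowers it. Among the adrenergic receptors, the alpha-1 class (Adra1a) acts through Gq and phospholipase C, the alpha-2 class (Adra2a, Adra2c) through inhibitory G proteins and the beta-1 receptor (Adrb1) through stimulatory ones. Monoamine oxidases A and B (Maoa, Maob) sit on the outer mitochondrial membrane and oxidise monoamines. In brain Maob is best known from astrocytes and serotonergic neurons and Maoa from noradrenergic neurons.

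Hippocampal poly(A) RNA was sequenced from male C57BL/6 mice, bought at 6 to 8 weeks of age and kept for 7 days before the experiment, with 4 libraries in each of 3 groups. Treatment mice went through 28 days of chronic unpredictable mild stress (CUMS), a rodent depression model built from changing daily stressors, and were gavaged daily from day 15, for 14 days, with 20 mg/kg of poricoic acid A, a triterpenoid that the labels also call Poria cocos acid A after the fungus that makes it. Model mice had the same 28 days of CUMS with saline, and Control mice had saline without stress. All mice of the 3 groups had been chosen for a sucrose preference above 50% before the experiment. The labels give 4 per group without stating that each library is a different animal, so p-values measure the spread between these libraries.

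The library totals ran from 17083260 to 27479083 estimated counts, and the biological coefficient of variation over all genes was 10.7%. Prox1, which marks dentate granule cells, averaged 113 ± 11.5 CPM in Treatment, 153 ± 16.6 CPM in Model and 135 ± 15.7 CPM in Control (SD, n = 4 each). Choroid plexus markers were uneven among libraries: their 12 genes summed to 482 to 1495 CPM in Treatment, 617 to 892 CPM in Model and 738 to 2415 CPM in Control. Thalamus and habenula markers summed to 284 CPM in Control replicate 1, 139 CPM in Model replicate 2 and 137 CPM in Treatment replicate 2. In the other libraries they summed to between 74.7 and 103 CPM. The libraries of Treatment replicates 2 and 3 carry names (1631 and 1636) apart from those of the rest.

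The 9 genes lie on 6 chromosomes in the coordinates of the table, for whose build the submitters' processing notes name GRCm39. Maoa (chrX:16485937-16554057) and Maob (chrX:16575521-16683605) are neighbours with 21.5 kb between them, and their genes run on opposite strands. Adra2c (chr5:35435663-35439107) and Drd5 (chr5:38476710-38479861) lie 3.04 Mb apart, and Adra2a (chr19:54032582-54037413) and Adrb1 (chr19:56710631-56713582) 2.67 Mb apart. Drd1 is at chr13:54205202-54209724, Drd2 at chr9:49251927-49319477 and Adra1a at chr14:66872700-66970911. In GENCODE vM21 the listed transcripts of Drd5, Adra2a, Adra2c and Adrb1 have 1 exon each, and that of Drd1 has its coding sequence in 1 of 2 exons. Drd2 has 8 exons, Adra1a 4, and the oxidases 15 each.

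RefSeq promoter windows (build GRCm38.p6, 250 bases before to 50 after a start) were found for 7 of the 9 genes, 8 windows in all. The 2 shown belong to the genes whose libraries did not overlap between groups, so that a reader can see what lies upstream of them. They run 5′ to 3′ on the plus strand, at chr5:38319259-38319558 for Drd5 and chr19:56721867-56722166 for Adrb1. Capitals mark matches on either strand to the GC box GGGCGG, the cAMP response element half-site TGACG or the glucocorticoid receptor half-site AGAACA.
Drd5: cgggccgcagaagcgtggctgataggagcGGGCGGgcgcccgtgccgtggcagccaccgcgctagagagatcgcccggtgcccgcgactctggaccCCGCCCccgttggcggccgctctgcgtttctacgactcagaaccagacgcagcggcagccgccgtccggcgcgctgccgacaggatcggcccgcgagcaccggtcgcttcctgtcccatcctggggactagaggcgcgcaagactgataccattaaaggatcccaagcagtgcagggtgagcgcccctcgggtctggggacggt
Adrb1: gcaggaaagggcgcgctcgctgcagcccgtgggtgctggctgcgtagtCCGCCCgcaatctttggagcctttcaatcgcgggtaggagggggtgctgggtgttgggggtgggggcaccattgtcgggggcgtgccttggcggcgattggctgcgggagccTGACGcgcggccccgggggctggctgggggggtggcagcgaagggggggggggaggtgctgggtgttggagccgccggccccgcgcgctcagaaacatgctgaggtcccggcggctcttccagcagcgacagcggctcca
The Drd5 window holds 2 GC boxes and neither half-site. The Adrb1 window holds 1 GC box and 1 TGACG. A GC box was present in 7 of the 8 windows of these genes and in 35.7% of 32851 windows of the same length. TGACG was present in 3 of 8 and in 20.8% of all, and AGAACA in 0 of 8 and in 19.0% of all. The full element TGACGTCA, which contains TGACG on both strands, was in 0 of 8 and 1.79% of all. The GC content was 70.3% in the Drd5 window and 72.3% in the Adrb1 window, against a median of 52.7% over all windows. Over the 8 windows, of which 2 belong to Drd1, it ran from 51.3% to 72.3%. The window without a GC box, that of Adra2c, was the one at 51.3%. The motif shares were not matched for GC content. Letters alone do not show that a factor binds.

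Per length, the degrading enzymes stood highest and 3 receptors lowest. Mean FPKM over the 12 libraries was 13.3 for Maob (10.6 to 16.6), 8.64 for Maoa (7.41 to 9.82), 7.60 for Adra2c (5.81 to 9.84), 5.81 for Adrb1 (4.75 to 6.94), 4.64 for Adra2a (3.79 to 5.81) and 4.59 for Drd5 (3.28 to 6.76). Drd2 had a mean of 1.54 FPKM (0.722 to 2.24), Adra1a one of 1.46 (0.786 to 2.13) and Drd1 one of 1.41 (1.11 to 1.95). The ranges of Maob and Maoa, and those of Drd5 and Drd2, do not overlap, whereas those of all other neighbours in this order do. Within a library Maob was above Maoa, Adra2c above Adrb1 and Adrb1 above Adra2a in 12 of 12. The order of the remaining overlapping neighbours changed between libraries, with Maoa above Adra2c in 9 of 12 and Adra2a above Drd5, Drd2 above Adra1a and Adra1a above Drd1 in 7 of 12 each. Of the tested genes 43.7% to 66.6% had a lower mean FPKM than each of the 6 higher genes, and 24.8% to 26.1% a lower one than each of the 3 lower genes.

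**Figure D1:**
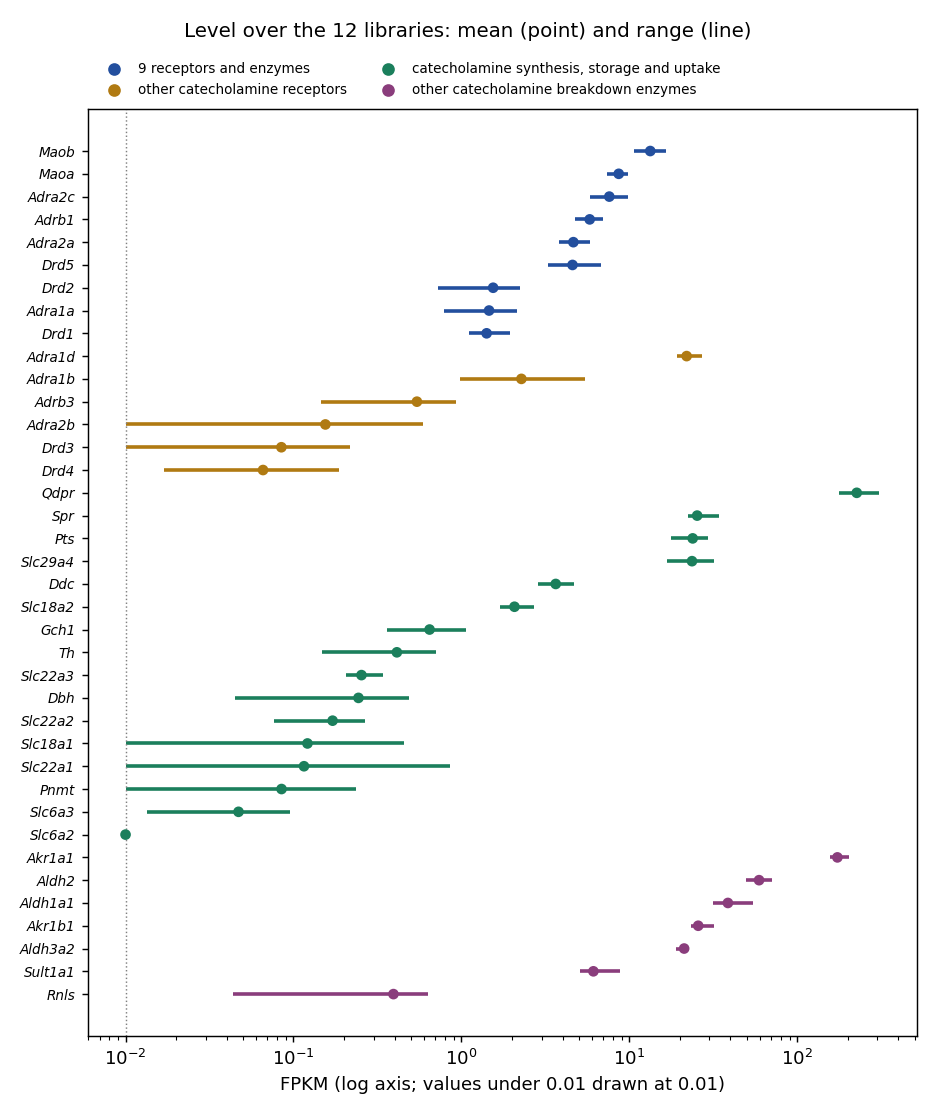
Mean FPKM (points) and range over the 12 libraries (lines), on a log axis, for the 9 receptors and enzymes and for genes among the other catecholamine receptors, synthesis, storage and uptake, and the other breakdown enzymes. Maob at 13.3 FPKM leads the 9 genes and Drd1 at 1.41 FPKM closes them, while Th and Dbh lie below 1 FPKM in every library.

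The D1-class receptors differed in level and in spread. Drd5, which binds dopamine with higher affinity than Drd1, stood at 9.43, 11.3, 14.5 and 11.1 CPM in Treatment replicates 1 to 4, at 14.0, 16.4, 19.8 and 16.0 CPM in Model and at 10.3, 10.3, 13.3 and 12.6 CPM in Control. The lowest Model library lay above the highest Control library, whereas Treatment replicate 3 reached into the Model range and the Control range lay within that of Treatment. Model differed from Control by a log2 fold change of 0.51 ± 0.14 (SE; edgeR quasi-likelihood test, Benjamini-Hochberg adjusted p = 0.0827, 95% interval 0.22 to 0.80). Treatment differed from Model by -0.51 ± 0.14 (edgeR, adjusted p = 0.0630, 95% interval -0.80 to -0.22). These comparisons share the 4 Model libraries. Treatment and Control, at 11.6 ± 2.14 and 11.6 ± 1.56 CPM, differed by -0.00 (edgeR, adjusted p = 0.999, 95% interval -0.29 to 0.29).

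Drd5 stood close enough to the threshold for the processing to decide its call. Among other settings, Model against Control passed in DESeq2 (adjusted p = 0.0145), without the count filter (3.58e-04), with only the 8 libraries compared (0.0458), without Treatment replicate 3 (0.0440) and without Treatment replicates 2 and 3 (0.0484). Likewise, Treatment against Model passed in DESeq2 (adjusted p = 0.0112), without the count filter (5.05e-04), without Model replicate 1 (0.0489) and without Treatment replicate 3 (0.0234). Over all alternatives the adjusted p reached 0.233 in Model against Control, where the log2 fold change stayed within 0.40 to 0.59. In Treatment against Model it reached 0.187, with a log2 fold change of -0.68 to -0.41.

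Counts of Drd5 are estimates that share reads with another feature. They were not whole (tolerance 0.01) in any of the 12 libraries, and the gene overlaps the long noncoding RNA Gm26560 (chr5:38474676-38478240), for which the table gives 21.0 to 53.1 counts a library. Gm26560 averaged 1.48 ± 0.32 CPM in Treatment, 1.89 ± 0.67 CPM in Model and 1.65 ± 0.49 CPM in Control (SD, n = 4 each). The sum of Drd5 and Gm26560 was 10.8 to 16.5 CPM in Treatment, 14.9 to 22.3 CPM in Model and 11.6 to 15.6 CPM in Control. In this sum Model and Control overlap. Strandedness is not stated in the labels, so reads of the overlapping stretch cannot be assigned with certainty.

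Markers of dentate granule cells were, like Drd5, highest in Model, but did not follow it throughout. Their 12 genes summed to 708 to 757 CPM in Treatment, 870 to 1058 CPM in Model and 763 to 931 CPM in Control, and Model replicate 3 was highest both in this sum and in Drd5. All Treatment sums lay below all Control sums, while Drd5 averaged 11.6 CPM in both groups. Within Treatment, replicate 1 was highest in the markers and lowest in Drd5. Replicate 3, highest in Drd5, was lowest in the sum, but not in the mean log2 CPM of the 12 genes (centred over the libraries). That mean was -0.186 in replicate 3, -0.221 in replicate 2 and -0.219 in replicate 4. By it Treatment replicate 1 (-0.128) also lay above Control replicate 2 (-0.153), so the separation of these groups held in the sum only. Of the 12, in Treatment against Model 5 passed as lower, Prox1, Sema5a, Calb1, Trpc6 and C1ql3, and 0 as higher (edgeR, adjusted p under 0.05). Over all genes 0.704% passed as lower and 1.18% as higher. In Model against Control 1 of the 12 passed as higher, Trpc6, and 0 as lower, against 0.339% and 0.452% of all genes. The part of these markers in the Drd5 values was not tested. In bulk tissue fewer cells of a type and less RNA per cell cannot be told apart. The tested genes whose log2 CPM was most like that of Drd5 over the 12 libraries were Camkk1, a kinase that activates CaM kinases (Pearson r = 0.95, Spearman rho = 0.90), and Doc2b, a calcium sensor of vesicle release (r = 0.94, rho = 0.86). They were chosen as the best of 13724 genes, so the coefficients are a description.

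Drd1, the main dopamine receptor of striatal output neurons and sparse in the hippocampus, rested on 64 to 156 counts a library. It stood at 4.56, 3.70, 4.65 and 5.47 CPM in Treatment, 3.69, 4.90, 3.73 and 4.50 CPM in Model and 5.10, 4.31, 3.73 and 6.38 CPM in Control. All 3 groups overlap. Model differed from Control by -0.22 ± 0.18 (edgeR, adjusted p = 0.602, 95% interval -0.60 to 0.16) and Treatment from Model by 0.13 ± 0.18 (edgeR, adjusted p = 0.758, 95% interval -0.25 to 0.51). Markers of striatal projection neurons, a list that leaves out Drd1 and Drd2, summed to 34.1 to 47.8 CPM in Treatment, 32.2 to 40.5 CPM in Model and 31.4 to 43.9 CPM in Control. Its first gene Adora2a, an adenosine receptor, averaged 1.83 ± 0.80, 1.94 ± 0.23 and 1.86 ± 0.36 CPM in the same order of groups. Most like Drd1 over the libraries were Rpap3 (r = 0.87, rho = 0.85) and Polr3g (r = 0.87, rho = 0.83).

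The FPKM ratio of Drd5 to Drd1 was 2.33 to 3.55 in Treatment, 3.77 to 6.00 in Model and 2.23 to 4.04 in Control. Every Model library exceeded every Treatment library. On the log2 scale Treatment was lower than Model by a mean difference of -0.64 (exact two-sided permutation test over 70 arrangements, p = 0.0286, the smallest possible, adjusted p = 0.257 over 9 tests of 3 ratios). Model against Control gave 0.77 (exact permutation p = 0.0857, adjusted p = 0.257) and Treatment against Control 0.12 (exact permutation p = 0.743, adjusted p = 0.867).

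Drd2, known in the hippocampus from mossy cells of the hilus and from some interneurons, was the most variable of the 9 genes, with a coefficient of variation of 30.8% in edgeR. It stood at 1.64, 4.81, 5.05 and 2.41 CPM in Treatment, at 3.29, 3.86, 3.96 and 2.15 CPM in Model and at 4.18, 4.74, 3.90 and 2.25 CPM in Control. Within each group the values split, with Treatment replicates 1 and 4, Model replicate 4 and Control replicate 4 all below 2.5 CPM and the other 8 libraries above 3.2 CPM. The group means of 3.48 ± 1.71, 3.31 ± 0.83 and 3.77 ± 1.07 CPM in Treatment, Model and Control differed by less than that spread. The log2 fold changes were -0.19 ± 0.32 for Model against Control (edgeR, adjusted p = 0.833) and 0.07 ± 0.32 for Treatment against Model (edgeR, adjusted p = 0.940), with 95% intervals of -0.87 to 0.49 and -0.61 to 0.76. Without Treatment replicates 2 and 3 the Treatment comparison turned to -0.69 (edgeR, adjusted p = 0.356), and over single libraries left out it ran from -0.17 to 0.30.

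The low Drd2 libraries were also low in markers of the choroid plexus, with sums of 482 and 513 CPM in Treatment replicates 1 and 4, 660 CPM in Model replicate 4 and 738 CPM in Control replicate 4. Model replicates 1 and 2, at 617 and 671 CPM, were as low in these markers with Drd2 at 3.29 and 3.86 CPM. Ependymal markers summed to 15.8 and 25.8 CPM in Treatment replicates 1 and 4, against 33.1 and 33.6 CPM in Treatment replicates 2 and 3. In the other groups they did not split like Drd2: Model replicate 3, highest of Model in Drd2, was lowest of Model in them at 27.2 CPM, and Control replicate 4, low in Drd2, stood at 31.6 CPM. Markers of mossy cells summed to 106 to 143 CPM in Treatment, 127 to 176 CPM in Model and 123 to 152 CPM in Control, and their lowest library, Treatment replicate 1, was also the lowest in Drd2. In mean log2 CPM, centred over the libraries, markers of striatal projection neurons were lowest of each group in the low Drd2 libraries. They stood at -0.397 and 0.0525 in Treatment replicates 1 and 4, -0.470 in Model replicate 4 and -0.117 in Control replicate 4. Control replicate 3 was close, at -0.105, with Drd2 at 3.90 CPM. The sums of these markers did not split so, with Treatment replicate 4 highest of Treatment at 47.8 CPM. The part of these tissues and cells in the Drd2 values was not tested. The gene most like Drd2 over the libraries was Lrrc23, a component of motile cilia (r = 0.96, rho = 0.94), followed by the tetraspanin Tspan33 (r = 0.93, rho = 0.79).

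**Figure D2:**
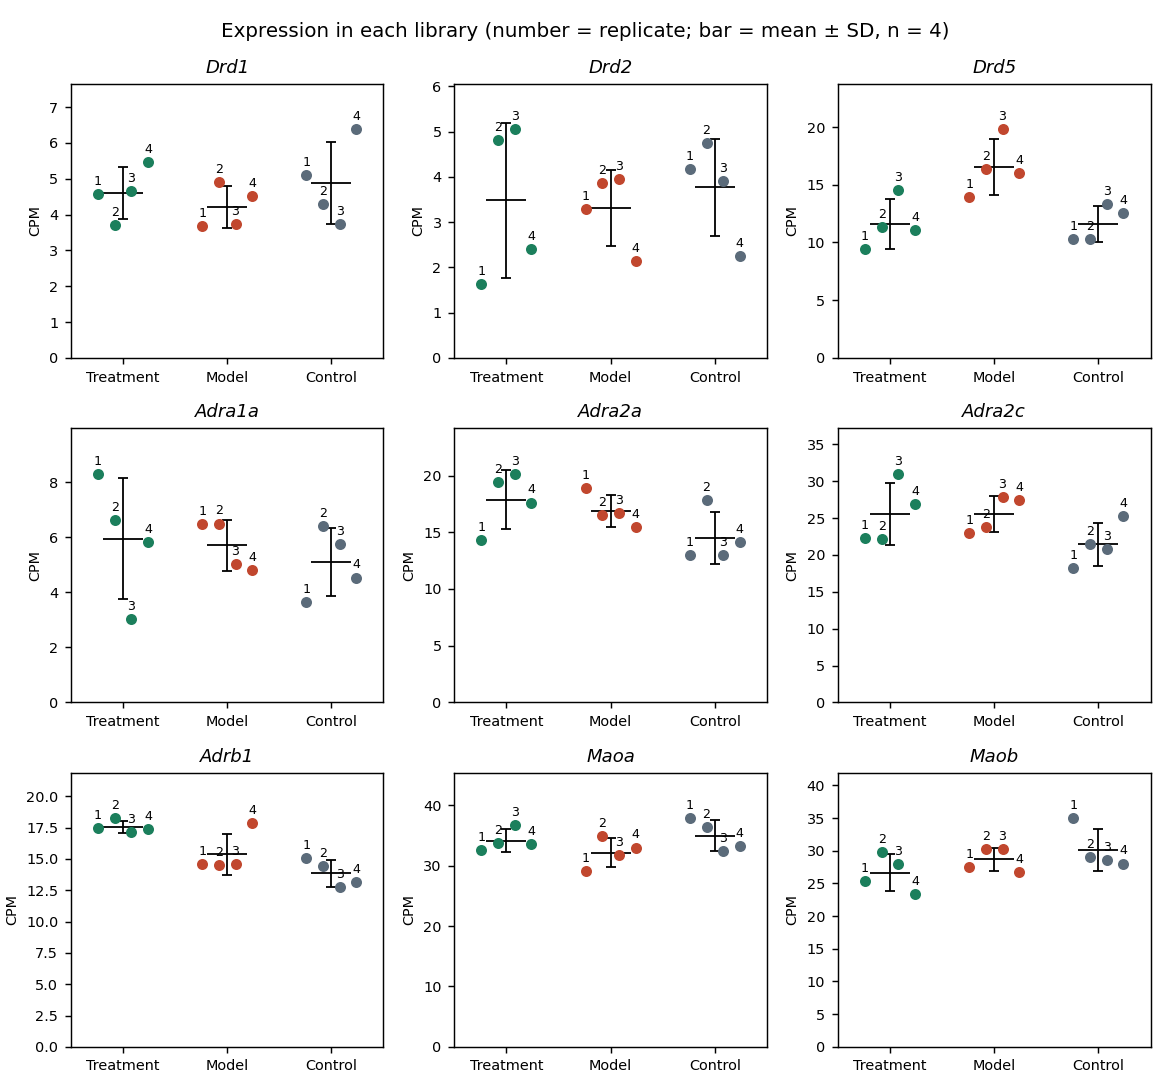
CPM of the 9 genes in each library (points, numbered by replicate) with mean ± SD per group, n = 4, on axes from 0. Drd5 in Model (14.0 to 19.8 CPM) lies above Control (10.3 to 13.3 CPM), Adrb1 in Treatment (17.2 to 18.2 CPM) lies above Control (12.7 to 15.0 CPM), and Drd2 splits within each group.

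Adrb1, the main cardiac beta receptor, had the smallest relative spread of the 9 genes within Treatment. It stood at 17.5, 18.2, 17.2 and 17.4 CPM in Treatment, 14.6, 14.5, 14.6 and 17.8 CPM in Model and 15.0, 14.5, 12.7 and 13.2 CPM in Control. All 4 Treatment libraries lay above all 4 Control libraries, and of the Model libraries replicate 4 alone was within the Treatment range. Treatment differed from Control by 0.34 ± 0.09 (edgeR, adjusted p = 0.114, 95% interval 0.16 to 0.52). This comparison passed in DESeq2 (adjusted p = 0.0283) and without the count filter (adjusted p = 0.0439), and over all alternatives the adjusted p reached 0.314. Treatment differed from Model by 0.19 ± 0.09 (edgeR, adjusted p = 0.248) and, without Model replicate 4, by 0.27 (edgeR, adjusted p = 0.112). Model differed from Control by 0.15 ± 0.09 (edgeR, adjusted p = 0.426).

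Neocortical and endothelial markers were, like Adrb1, highest in Treatment. The 8 neocortical genes summed to 323 to 442 CPM in Treatment, 220 to 308 CPM in Model and 227 to 315 CPM in Control. In these sums Treatment did not overlap with either group. In the mean log2 CPM of the 8 genes, centred over the libraries, Treatment replicate 3 (0.0603) lay below Control replicate 1 (0.0851). The order of libraries did not always follow Adrb1: Model replicates 1 and 4 had sums of 299.6 and 307.9 CPM with Adrb1 at 14.6 and 17.8 CPM, and Control replicate 2 had one of 315.0 CPM with Adrb1 at 14.5 CPM. Endothelial markers summed to 217 to 258 CPM in Treatment, 186 to 202 CPM in Model and 174 to 198 CPM in Control. Pericyte and smooth muscle markers were also highest in Treatment. They summed to 205 to 228 CPM there, 174 to 182 CPM in Model and 178 to 194 CPM in Control. In the mean log2 CPM of these genes, Treatment replicate 1 (0.0437) lay below Control replicates 2 (0.0648) and 4 (0.0548). In Treatment against Model, 3 of 8 neocortical genes passed as higher (Lamp5, Rspo1 and Cux2) and 2 of 10 endothelial ones (Pecam1 and Slco1a4). Over all genes 1.18% passed as higher. Of either list 0 passed as lower, against 0.704% of all genes (edgeR, adjusted p under 0.05). In Treatment against Control edgeR called 0 of the 8 neocortical and 0 of the 10 endothelial genes, against 0.102% of all genes. The 9 pericyte and smooth muscle genes gave 0 in both comparisons in edgeR. DESeq2 called 3, 4 and 1 genes of the neocortical, endothelial and pericyte lists as higher in Treatment against Control, against 2.87% of all genes. The part of these markers in the Adrb1 values was not tested. Adrb1 also overlaps an unnamed long noncoding RNA (chr19:56700608-56711415), whose level averaged 1.07 ± 0.30 CPM in Treatment, 0.84 ± 0.39 CPM in Model and 1.01 ± 0.20 CPM in Control. With it added, the sum was 18.4 to 18.9 CPM in Treatment and 13.8 to 15.8 CPM in Control, still without overlap. Most like Adrb1 were Metrnl, a secreted hormone-like protein (r = 0.93, rho = 0.87), and Cdk2ap1, an inhibitor of CDK2 (r = 0.91, rho = 0.85).

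**Figure D3:**
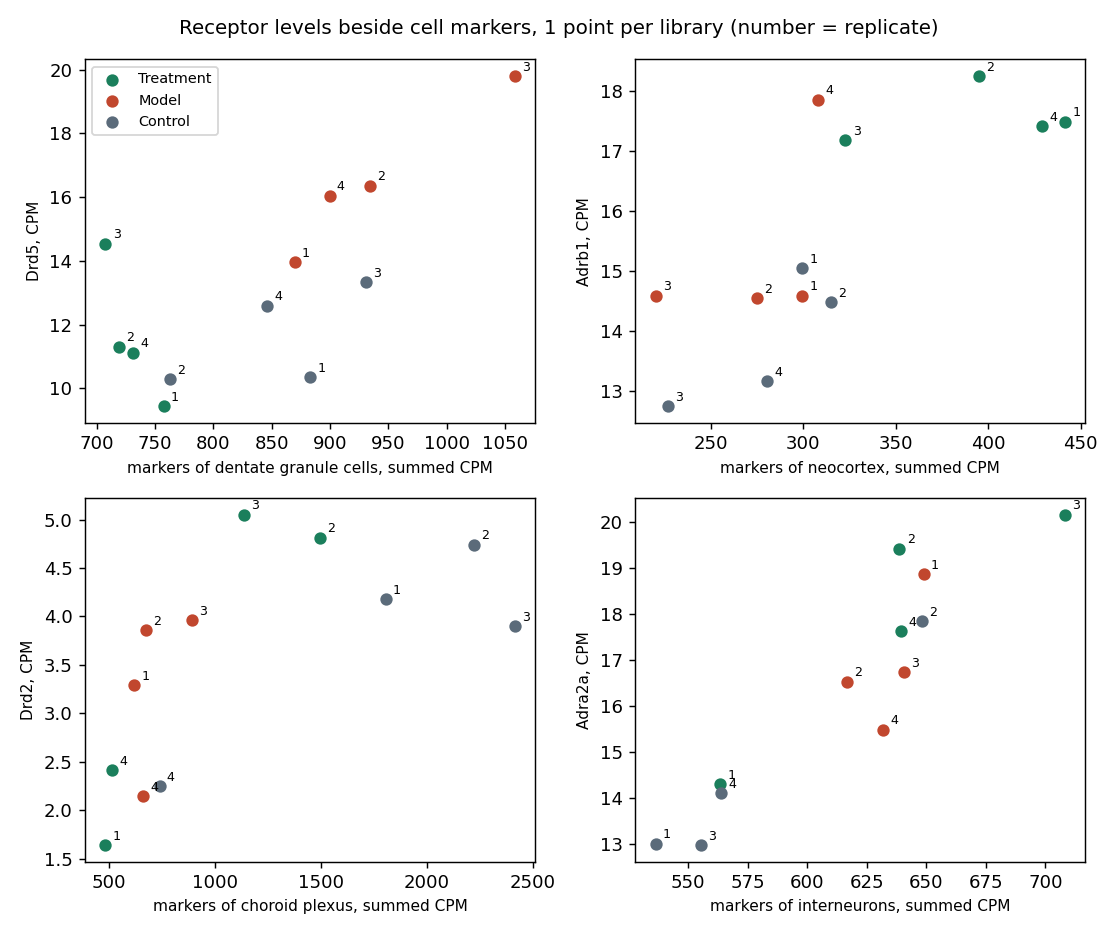
CPM of Drd5, Adrb1, Drd2 and Adra2a against the summed CPM of a marker list, 1 point per library, numbered by replicate and coloured by group. The 4 pairings were chosen after their values were seen, and none was tested. The library highest in granule cell markers, Model replicate 3 at 1058 CPM, is also highest in Drd5 at 19.8 CPM.

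The alpha-2 receptors, which as autoreceptors and on target neurons dampen release and firing, had similar means in Treatment and Model. Adra2c stood at 22.3, 22.1, 31.0 and 26.9 CPM in Treatment, 23.0, 23.9, 27.9 and 27.5 CPM in Model and 18.3, 21.4, 20.8 and 25.2 CPM in Control. Control replicate 4 alone kept Control from lying below all Model libraries. Adra2c differed by 0.25 ± 0.12 both in Model against Control (edgeR, adjusted p = 0.311, 95% interval 0.00 to 0.50) and in Treatment against Control (edgeR, adjusted p = 0.351). Treatment against Model gave 0.00 ± 0.12 (edgeR, adjusted p = 0.999, 95% interval -0.25 to 0.25).

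Adra2a stood at 14.3, 19.4, 20.2 and 17.6 CPM in Treatment, 18.9, 16.5, 16.7 and 15.5 CPM in Model and 13.0, 17.8, 13.0 and 14.1 CPM in Control. The groups overlap, with Control replicate 2 within the Model range and Treatment replicate 1 within the Control range. Adra2a differed by 0.30 ± 0.12 in Treatment against Control (edgeR, adjusted p = 0.285) and by 0.22 ± 0.12 in Model against Control (edgeR, adjusted p = 0.413). Interneuron markers, as a sum, were low in the same libraries as Adra2a. They summed to 564 CPM in Treatment replicate 1 and to 536, 555 and 564 CPM in Control replicates 1, 3 and 4, and to between 617 and 708 CPM in the other 8 libraries. The mean log2 CPM of these genes, centred over the libraries, did not split so. There Treatment replicate 1 (-0.00444) lay above Model replicate 2 (-0.0123). The part of these markers in the Adra2a values was not tested. One of these 8 marker genes, Slc32a1, the vesicular GABA transporter, was the gene most like Adra2a (r = 0.93, rho = 0.91), with Bud23 next (r = 0.92, rho = 0.92). Most like Adra2c were Chp1 (r = 0.95, rho = 0.92) and Rab7, a GTPase of late endosomes (r = 0.94, rho = 0.93). The FPKM ratio of Adra2c to Adra2a was 1.62 ± 0.24 in Treatment, 1.70 ± 0.27 in Model and 1.65 ± 0.28 in Control (SD, n = 4 each). Its 3 exact permutation tests had p between 0.657 and 0.914.

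Adra1a was at 8.31, 6.64, 3.03 and 5.82 CPM in Treatment, 6.49, 6.50, 5.03 and 4.81 CPM in Model and 3.64, 6.41, 5.76 and 4.54 CPM in Control. Treatment held both the highest and the lowest library, and the other groups lay within its range. It differed by 0.16 ± 0.24 in Model against Control (edgeR, adjusted p = 0.812, 95% interval -0.36 to 0.68) and by 0.06 ± 0.24 in Treatment against Model (edgeR, adjusted p = 0.932). It rested on 60 to 177 counts a library, with a coefficient of variation of 23.4%. Most like Adra1a were Zc3h13 (r = 0.91, rho = 0.90) and Pclo, a scaffold of the presynaptic active zone (r = 0.90, rho = 0.89).

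The monoamine oxidases had the highest mean CPM of the 9 genes, on 491 to 1007 counts a library. Maoa stood at 32.5, 33.7, 36.8 and 33.6 CPM in Treatment, 29.0, 34.8, 31.7 and 33.0 CPM in Model and 37.8, 36.4, 32.4 and 33.2 CPM in Control. The 3 groups overlap. Model differed from Control by -0.12 ± 0.07 (edgeR, adjusted p = 0.442, 95% interval -0.28 to 0.03) and Treatment from Model by 0.09 ± 0.07 (edgeR, adjusted p = 0.569, 95% interval -0.07 to 0.24). Maob stood at 25.3, 29.8, 28.0 and 23.4 CPM in Treatment, 27.5, 30.2, 30.2 and 26.8 CPM in Model and 35.0, 29.1, 28.6 and 28.0 CPM in Control. Control replicate 1, also the library with the highest thalamus and habenula markers, was above the rest. Model replicate 2 and Treatment replicate 2, next in these markers at 139 and 137 CPM, had Maob at 30.2 and 29.8 CPM. Model replicate 3, at 75.5 CPM of these markers, also had Maob at 30.2 CPM. The part of these markers in the Maob values was not tested. Treatment differed from Control by -0.18 ± 0.09 (edgeR, adjusted p = 0.386, 95% interval -0.37 to 0.01), and Model from Control by -0.07 ± 0.09 (edgeR, adjusted p = 0.754), which became 0.01 without Control replicate 1 (edgeR, adjusted p = 0.984).

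Markers of astrocytes summed to 4717 to 5821 CPM in Treatment, 5136 to 5591 CPM in Model and 5280 to 5732 CPM in Control. The FPKM ratio of Maob to Maoa was 1.26 to 1.62 in Treatment, 1.49 to 1.76 in Model and 1.45 to 1.69 in Control. In log2 units it was lower in Treatment than in Model by a difference of -0.20 (exact permutation p = 0.0857, adjusted p = 0.257) and than in Control by one of -0.14 (exact permutation p = 0.171, adjusted p = 0.385). Model against Control gave 0.06 (exact permutation p = 0.429, adjusted p = 0.772). Most like Maoa were Pmvk, an enzyme of the mevalonate pathway (r = 0.91, rho = 0.94), and Ifit3b, an interferon-induced gene (r = 0.86, rho = 0.87). Most like Maob were Rasl11a (r = 0.89, rho = 0.53) and Igsf1 (r = 0.89, rho = 0.75), with rank coefficients well below r.

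Counts over the 9 genes are set beside those of all 18600 tested genes. In Model against Control 0 of 9 passed in edgeR and in limma on log2(FPKM + 1), and 1 passed in DESeq2, Drd5. In DESeq2 4.50% of all genes with an adjusted p passed, and in limma 0.0268%. In edgeR 0.790% of all genes passed, 0.339% higher and 0.452% lower. At an unadjusted p under 0.05 there were 2 of 9, Drd5 and Adra2c, against 15.6% of all genes. The libraries of Model and Control did not overlap in 1 of 9, Drd5, which was higher, against 11.4% of all genes, 5.95% higher and 5.46% lower. In Treatment against Model 0 of 9 passed in edgeR and in limma, and 1 in DESeq2, Drd5. The share of all genes was 8.03% in DESeq2 and 0.595% in limma. In edgeR 1.88% of all genes passed, 1.18% higher and 0.704% lower. Here 2 had an unadjusted p under 0.05, Drd5 and Adrb1, against 18.5%, and 0 were without overlap, against 9.50%, 5.14% higher and 4.36% lower. In Treatment against Control 0 of 9 passed in edgeR and in limma, and 1 in DESeq2, Adrb1. The share of all genes was 2.87% in DESeq2 and 0.0483% in limma. In edgeR 0.102% of all genes passed, 0.0645% higher and 0.0376% lower. At an unadjusted p under 0.05 there were 3, Adra2a, Adra2c and Adrb1, against 13.9%. Without overlap was 1, Adrb1, which was higher, against 7.24% of all genes, 3.99% higher and 3.24% lower. The median log2 fold change of the 9 was 0.15, 0.07 and -0.00 in these comparisons, and that of all genes -0.01, 0.00 and -0.01.

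**Figure D4:**
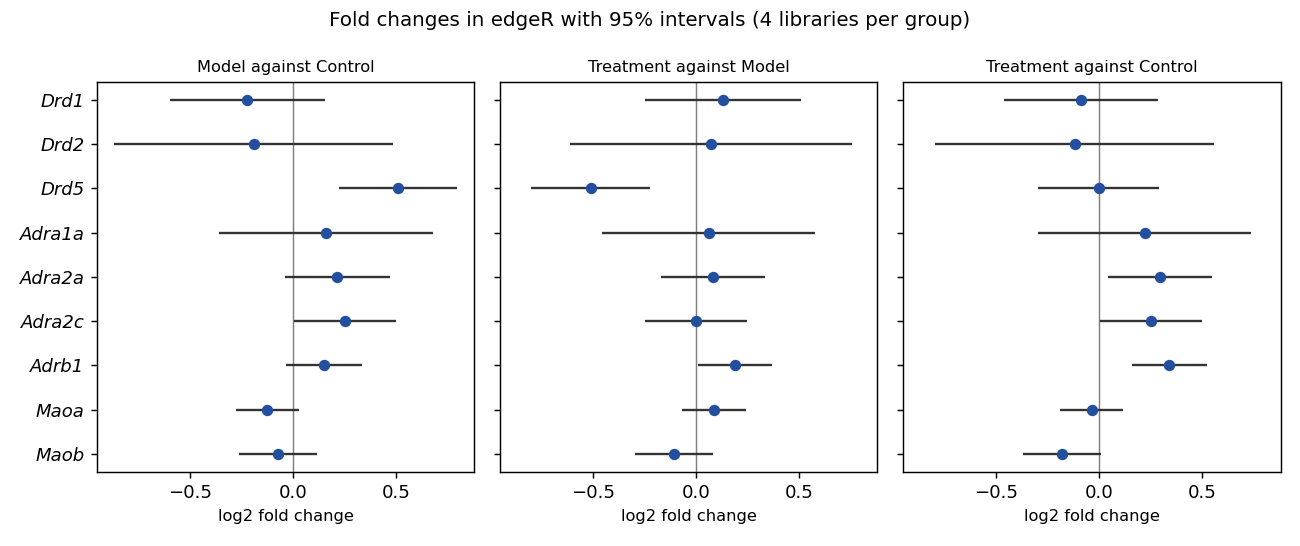
Log2 fold changes from edgeR (points) with 95% intervals (lines) for the 9 genes in the 3 comparisons, with 4 libraries per group. The intervals of Drd5 exclude 0 in both comparisons with Model (0.22 to 0.80 and -0.80 to -0.22) before adjustment over all genes, and those of Drd2 are the widest.

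The 9 genes did not vary as a block over the 12 libraries. Among their 36 pairs the highest coefficients were those of Drd2 with Maob (Pearson r = 0.64, Spearman rho = 0.61) and of Drd5 with Adra2c (r = 0.60, rho = 0.63), and the lowest was that of Adra1a with Maoa (r = -0.50, rho = -0.29). These coefficients share library scaling and are given as a description.

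The other catecholamine receptors gave 0 genes past the threshold among 5 tested of 7 in each comparison in edgeR, 0 among the 2 with an adjusted p in DESeq2 and 0 among 4 in limma. At an unadjusted p under 0.05 there were 2 in Model against Control, 1 in Treatment against Model and 0 in Treatment against Control, against 15.6%, 18.5% and 13.9% of all genes. The median log2 fold changes were -0.63, 0.69 and 0.02. Adra1d, an alpha-1 receptor of the Gq class, was above all 9 genes in mean FPKM, with 21.6 ± 2.38 in Treatment, 23.2 ± 2.94 in Model and 21.0 ± 1.22 in Control (SD, n = 4 each). Adra1b averaged 2.67 ± 0.43, 1.55 ± 0.46 and 2.60 ± 1.99 FPKM in Treatment, Model and Control, and its log2 fold change in Treatment against Model was 0.78 ± 0.37 (edgeR, adjusted p = 0.277). Drd3 and Drd4, which are D2-class receptors, did not pass the count filter, at 0.0847 and 0.0659 FPKM.

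Genes of synthesis, storage and uptake gave 0 past the threshold among 10 tested of 16 in each comparison in edgeR, 0 among the 6 or 7 with an adjusted p in DESeq2 and 0 among 8 in limma. At an unadjusted p under 0.05 there were 1, 1 and 3 in Model against Control, Treatment against Model and Treatment against Control, against the same 15.6%, 18.5% and 13.9% of all genes, with medians of 0.09, -0.17 and -0.11. The most abundant were Qdpr (226 FPKM), Spr (25.3 FPKM) and Pts (23.8 FPKM), which make or recycle tetrahydrobiopterin, the cofactor of tyrosine hydroxylase. Qdpr differed by -0.19 ± 0.08 in Model against Control (edgeR, adjusted p = 0.276) and Pts by -0.23 ± 0.09 in Treatment against Model (edgeR, adjusted p = 0.195). Ddc, the decarboxylase that makes dopamine and serotonin, named after its values were seen, averaged 3.33 ± 0.62 FPKM in Treatment, 3.88 ± 0.62 FPKM in Model and 3.72 ± 0.17 FPKM in Control (SD, n = 4 each), above the means of Drd1, Drd2 and Adra1a. Transcripts that define noradrenergic cell bodies were near 0. Tyrosine hydroxylase (Th) averaged 0.59 ± 0.10 CPM in Treatment, 0.86 ± 0.30 CPM in Model and 0.49 ± 0.28 CPM in Control, and dopamine beta-hydroxylase (Dbh) 0.36 ± 0.20, 0.53 ± 0.11 and 0.78 ± 0.31 CPM in the same order. The noradrenaline transporter Slc6a2 had a mean of 0.0118 CPM over the libraries.

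The 8 other breakdown enzymes found in the table were all tested, and 0 passed in each comparison in edgeR and in limma. In DESeq2, where 7 had an adjusted p, Aldh2 passed as higher in Treatment against Model and Aldh1a1 as lower in Treatment against Control, against 8.03% and 2.87% of all genes. At an unadjusted p under 0.05 there were 0 in Model against Control, 2 in Treatment against Model and 1 in Treatment against Control, against 15.6%, 18.5% and 13.9% of all genes, with medians of -0.02, 0.00 and 0.00. Akr1a1, an aldehyde reductase, had 173 FPKM and the mitochondrial aldehyde dehydrogenase Aldh2 59.2 FPKM. Aldh2 differed by 0.25 ± 0.08 in Treatment against Model (edgeR, adjusted p = 0.101), and Aldh1a1, a cytosolic aldehyde dehydrogenase named after its values were seen, by -0.36 ± 0.10 in Treatment against Control (edgeR, adjusted p = 0.142).

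Among 37 genes of signalling below the receptors (G proteins, adenylyl cyclases, protein kinase A, phosphodiesterases, receptor kinases and arrestins), 0 passed in each comparison in edgeR. DESeq2 called 2 in Model against Control and 5 in Treatment against Control, all higher, where it called 4.50% and 2.87% of all genes. In Treatment against Model it called 1 as higher and 1 as lower, against 8.03% of all genes. Limma called 1, Grk2, in Treatment against Model, against 0.595% of all genes, and 0 in the others. At an unadjusted p under 0.05 edgeR gave 11 in Model against Control, 8 in Treatment against Model and 9 in Treatment against Control, against 15.6%, 18.5% and 13.9% of all genes. Model was above Control in 30 of the 37, at a median log2 fold change of 0.07, where 47.3% of all genes were above. Treatment was above Model in 23 (median 0.01), against 50.4% of all genes, and above Control in 26 (median 0.06), against 47.9%. The most abundant were Gnas, the stimulatory G protein (782 FPKM), Gnao1, an inhibitory one (260 FPKM), and Prkar1b, a regulatory subunit of protein kinase A (202 FPKM). Gnas differed by 0.02 ± 0.07 in Model against Control (edgeR, adjusted p = 0.909) and by 0.08 ± 0.07 in Treatment against Model (edgeR, adjusted p = 0.609). Prkar1b differed by 0.29 ± 0.06 in Treatment against Control (edgeR, adjusted p = 0.0902).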

How the data were processed

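Poly(A) RNA of 12 hippocampal libraries was analysed from 1 deposited table, with groups and replicate numbers taken from the sample titles. The authors deposited unscaled estimated counts (28.8% of nonzero values not whole within 1e-06) and FPKM values, which the authors scaled by length and library total. The tools listed in the submitters' processing notes are Salmon 1.10.1, STAR 2.7.10a, FastQC 0.12.1, cutadapt 3.4 and Trim Galore 0.6.7, with GRCm39 (mm39). Their roles, the annotation release and filters are not given in the sources used here. The length implied by counts and FPKM was nearly constant for 6 of the 9 genes but ranged from 2732 to 3334 bases for Drd1, 3490 to 3915 for Adra1a and 3452 to 3736 for Adra2a, so their FPKM and CPM can differ in order.

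Counts were rounded and analysed in edgeR 4.0.16 (R 4.3.3) with filterByExpr, TMM scaling and 1 quasi-likelihood fit of all 12 libraries. Benjamini-Hochberg adjustment ran over all 18600 genes tested. SE is the log2 fold change over the root of its F statistic, and intervals use the same degrees of freedom. CPM values use TMM-scaled library sizes, and coefficients across libraries are of log2 CPM (prior count 2). Library totals and the number of libraries limit the precision. Ratios were compared by exact permutation of libraries. Alternatives were RLE scaling, DESeq2 1.42.0, other count filters, fewer libraries, a replicate block, and the FPKM values in limma 3.58.1 (at least 0.5 in 4 libraries, pseudocounts of 0.1 and 1). The procedure was tested on simulated data drawn from its own fitted model, which cannot check the assumptions of that model.

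Named are the 9 genes, the 3 pathway genes of highest mean FPKM per list, pathway genes that pass, the first gene of a marker list and, for each of the 9, the 2 most similar genes of at least 1 CPM. Some genes that this rule names are not reported here. Other names were chosen after their values were seen. The genes, lists and comparisons were chosen with earlier results of these data known. Data tables were handled with data.table and pandas, and figures were drawn in matplotlib 3.10.9.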

Additional observations from a re-analysis of the deposited data

Results flagged for a closer look

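In 36 sets of 4 libraries (9 genes and 3 ratios in 3 groups) 4 libraries stood apart from the other 3 of their group, by a gap to the nearest library that passed Dixon's 95% critical value. Chance gives about 1 in 20 such sets, or 1.8 here. Adrb1 was at 17.85 CPM in Model replicate 4, against 14.5 to 14.6 CPM in the other 3. Maob was at 34.95 CPM in Control replicate 1, against 28.0 to 29.1 CPM. The log2 ratio of Adra2c to Adra2a was 0.35 in Treatment replicate 2, against 0.76 to 0.84. The log2 ratio of Drd5 to Drd1 was 2.02 in Control replicate 3, against 1.16 to 1.21.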

How the results depend on the processing

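Counts over all genes changed with the setting. In Model against Control (147 genes) 783 passed without the count filter, 658 in DESeq2, 438 with only the 8 libraries compared, 306 without Treatment replicates 2 and 3, and 5 on FPKM with either pseudocount. In Treatment against Model (350) the same settings gave 1090, 1088, 96, 130, and 114 and 111 on FPKM with pseudocounts of 0.1 and 1. In Treatment against Control (19) they gave 748, 430, 2, 135 and, with a pseudocount of 1, 9, and RLE scaling gave 12. Leaving out 1 library gave 8 (Control replicate 1) to 275 (Treatment replicate 3) in Model against Control, 0 (Model replicate 2 or 3) to 483 (Treatment replicate 3) in Treatment against Model, and 0 (Control replicate 1) to 78 (Treatment replicate 3) in Treatment against Control. The cause was not tested.

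Of the 9 genes, 1 in each comparison passed without the filter and in DESeq2, and 1 in Model against Control with 8 libraries or without Treatment replicates 2 and 3. With 1 library left out, 0 to 1 passed in Model against Control and in Treatment against Model, and 0 in Treatment against Control. Same-numbered libraries of different groups had correlations of deviations from -0.0404 to 0.111, with 1 of 12 pairs over 0.1. Libraries of different numbers had -0.145 to 0.1505, with 2 of 36 pairs over 0.1. Whether a replicate number marks a shared batch cannot be told from these values. The replicate block gave 228 genes in Model against Control and 118 in Treatment against Control, and 1 of the 9, Drd5, in Model against Control (edgeR, adjusted p = 0.0193) and in Treatment against Model (edgeR, adjusted p = 0.0112).

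Signs turned for log2 fold changes near 0. Adra2c in Treatment against Model was -0.00387 with RLE, -0.00182 without the filter, -0.00509 with the block, -0.0559 without Treatment replicates 2 and 3, -0.00385 with 8 libraries and -0.00382 in DESeq2. Drd5 in Treatment against Control was 0.00286 with RLE, 0.0112 without the filter and 0.00206 in DESeq2. Without Treatment replicates 2 and 3, Drd2 was -0.693 and Adra2a -0.0794 in Treatment against Model, and Drd1 0.0380 in Treatment against Control. Drd2 in Treatment against Model was -0.0136 on FPKM with a pseudocount of 0.1. With 1 library left out, Maob in Model against Control ran from -0.107 to 0.00858. In Treatment against Model Drd2 ran from -0.166 to 0.301, Adra1a from -0.142 to 0.273 and Adra2c from -0.109 to 0.0628. In Treatment against Control Drd1 ran from -0.194 to 0.0700, Drd2 from -0.354 to 0.121, Drd5 from -0.129 to 0.0936 and Maoa from -0.0748 to 0.00338. The log2 ratio of Adra2c to Adra2a ran from -0.0470 to 0.146 in Model against Control, -0.166 to 0.0474 in Treatment against Model and -0.112 to 0.0923 in Treatment against Control. Counts of 32 to 177 a library limit Drd1, Drd2 and Adra1a.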

Other observations

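Grk2 and Pde4a are named after their values were seen, as 2 of 37 signalling genes, and do not stand for their gene groups. Grk2, the kinase that phosphorylates occupied beta receptors, averaged 252 ± 6.54 CPM in Treatment, 219 ± 9.90 CPM in Model and 217 ± 9.70 CPM in Control (SD, n = 4 each). It differed by 0.20 ± 0.05 in Treatment against Model (edgeR, adjusted p = 0.0589) and by 0.22 ± 0.05 in Treatment against Control (edgeR, adjusted p = 0.108), and in both all 4 Treatment libraries were above the other group. DESeq2 called Grk2 in both comparisons, where it called 8.03% and 2.87% of all genes. Pde4a, a phosphodiesterase that degrades cAMP, averaged 130 ± 3.91 CPM in Treatment, 120 ± 1.93 CPM in Model and 111 ± 2.98 CPM in Control. The 3 groups did not overlap, and Treatment differed from Control by 0.22 ± 0.05 (edgeR, adjusted p = 0.0822). DESeq2 called Pde4a in Treatment against Control only. Of the 37 signalling genes, 7 were higher without overlap in Model against Control, 2 in Treatment against Model and 7 in Treatment against Control. Over all tested genes the shares higher without overlap were 5.95%, 5.14% and 3.99%.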
